A study of Citrus sinensis with 10 samples.

Results

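From 5856 cDNA clones measured in sweet orange fruit, 100 clones were described. They had the highest gain in level from 120 to 220 days after flowering in both a bud mutant and its wild type. They were taken from the clones that passed a filter on the ratio between the genotypes. Clones were first dropped where the mutant and the wild type differed 2-fold or more in the same direction on both arrays of any day, which removed 2259 and kept 3597. For each kept clone the rise, day 220 minus day 120 on the log2 scale, was taken in each genotype, and the 100 clones with the highest value of the smaller rise were chosen. The rises and the ratio filter therefore describe the list and test nothing about it.

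The fruit came from Hong Anliu, the mutant (R in the arrays' column names), and Anliu, the wild type (CK), both Citrus sinensis, at 120, 150, 170, 190 and 220 days after flowering. Both RNAs of a day were hybridised together on 2 arrays with the dyes exchanged (the mutant in Cy5 on repeat 1 and in Cy3 on repeat 2), which gave 10 arrays and 10 extracts. No treatment or other allele is named in the labels, and they do not say which part of the fruit was taken or whether several trees were pooled. Bud mutants descend from a single changed shoot, so the mutant stands for 1 such event. Each day has 1 extract per genotype, and the swapped arrays repeat the hybridisation, not the fruit.

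As background, sweet orange fruit passes over these months from an acid green fruit to a ripe one. Sugars build up in the juice sacs, citric acid declines, chlorophyll is lost from the peel and carotenoids accumulate. The fruit ripens without the burst of respiration and ethylene that marks climacteric fruit such as tomato. Hong Anliu is known for flesh reddened by the carotenoid lycopene, whereas Anliu has orange flesh.

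The files name each clone by plate, row and column of the clone library and pair none with a gene. Of the 5856 clone names 0 matched the RefSeq gene table of the Valencia sweet orange assembly DVS_A1.0, so roles, sequences and positions of the 100 clones are not given here. Different clones of a cDNA library can carry the same transcript, and which of the 100 do so is not known from the files.

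The median intensity over clone spots ran from 1036 on an array of 120 days to 3959 on one of 220 days for the mutant, and from 4555.5 to 2187.5 on those arrays for the wild type. Brightness thus moved with day in opposite ways in the genotypes. Quantile normalization sets it equal, and its part in the rises was not tested. The log2 ratios of the swapped arrays correlated across all clones between 0.78 (220 days) and 0.97 (170 days). Between days, the ratio at 170 days ran against those of 150 days (r = -0.31) and 220 days (r = -0.51) across all clones. Against 120 days it correlated at 0.20, and over the kept clones its correlation with 150 days was -0.06. The ratios of 120 and 220 days also ran against each other (r = -0.38). The direction at 170 days is given as labelled, and ratios at that day are also given with the sign turned. The mean level of both genotypes does not depend on that direction.

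The 100 clones stood higher at 220 days by a median of 1.13 (log2, quartiles 0.88 and 1.43) in Hong Anliu and 1.33 (0.97 and 1.68) in Anliu. The median over the 3597 kept clones was -0.28 in Hong Anliu and -0.03 in Anliu. The technical error of a rise, from the swapped arrays, had a median SE of 0.22 in Hong Anliu and 0.20 in Anliu (n = 2 arrays a day). In 53 of the 100 clones both rises reached a log2 value of 1. A positive rise in both genotypes was found in 18.7% of the kept clones, so the list is the upper end of a minority.

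**Figure D1:**
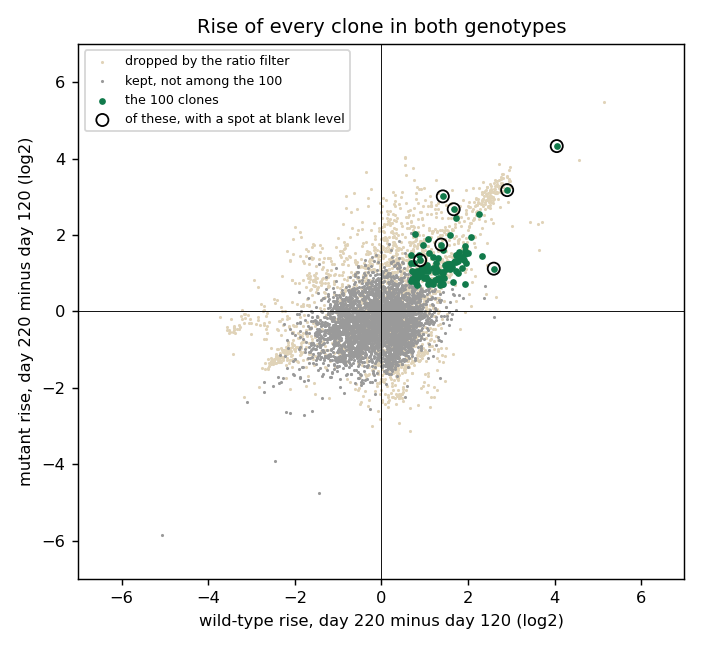
Rise from 120 to 220 days of each of the 5856 clones, wild type on the x axis and mutant on the y axis, both in log2. Green points are the 100 clones, grey points the other kept clones and tan points the clones dropped by the ratio filter. Circles mark the 7 clones with a spot at blank level, and tan points reach beyond most of the green ones.

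The list ended at a smaller rise of 0.68. The clones just inside were 17.A.2, 28.F.10 and 14.F.12, with smaller rises of 0.69, 0.68 and 0.68. Just outside lay 7.F.10 (0.68), 20.A.7 (0.68) and 16.C.8 (0.68), so the end of the list falls within a continuous run of values.

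Most of the strongest shared risers of the array are not among the 100. Of 606 clones with a smaller rise at or above that limit, 506 had been dropped because the genotypes differed 2-fold on both arrays of some day. Without the ratio filter the list would end at a smaller rise of 2.37 and would share 2 clones with the 100. The 100 clones are thus those that stood higher late in both genotypes and did not differ 2-fold in the same direction on both arrays of any day. The mean log2 ratio of a day could still pass 1 in size, as in 50.G.11 (1.39 at 170 days) and 12.H.12 (-1.21 at 120 days).

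Among the 10 clones at the head of the list, clone 23.G.1 was the highest with no spot at blank level. Its level in the mutant was 11.17, 11.78, 13.14, 12.80 and 13.72 from 120 to 220 days (quantile-normalized log2 intensity). The wild-type level was 10.43, 12.71, 12.41, 12.49 and 12.68. The wild type was near its late level at 150 days already, whereas the mutant was still low then and ended higher than the wild type. The rises were 2.55 (SE 0.19) and 2.25 (SE 0.15).

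Clone 20.A.8 followed the mean profile of the list most closely, with a correlation of 0.97 over the 10 extracts. Its mutant level was 10.43, 11.82, 11.11, 11.998 and 12.15 from 120 to 220 days. Its wild-type level was 10.26, 10.88, 11.14, 11.61 and 12.19 at those days. The wild type stood higher at each later day, and the mutant stood high at 150 days and lower at 170 days. Clone 9.A.2 had the same feature more strongly: its mutant level was 7.85, 10.37, 8.95, 9.95 and 10.29, and its wild-type level 7.84, 9.40, 9.49, 9.73 and 9.57.

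Clones 44.G.1 and 30.H.10, ranked next to each other, had another course. The mutant level of 30.H.10 was 11.29, 12.44, 12.74, 13.04 and 12.85 from 120 to 220 days. Its wild-type level was 11.55, 11.91, 11.62, 13.13 and 13.34. The wild type thus stayed low to 170 days and stood higher from 190 days, while the mutant was high from 150 days. Clone 44.G.1 gave 10.44, 11.79, 11.61, 12.51 and 12.01 in Hong Anliu. In Anliu it gave 10.65, 11.13, 10.61, 12.61 and 12.59, the same course as 30.H.10.

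Clones 53.A.4 and 13.F.3 were dim, with mutant levels of 6.43 and 7.06 at 120 days and 8.36 and 9.06 at 220 days. Of their 30 spots over the 10 arrays, 20 and 16 lacked the intensity class that the authors' files give to a spot. With such spots left out their smaller rises were 0.42 and 0.87, and that of 50.A.2 was 0.46, so 53.A.4 and 50.A.2 then lay below the list's limit. The mutant rises of these clones carried a larger error than the list's median SE of 0.22. With all spots used, the SE was 0.67 for 53.A.4, 0.39 for 13.F.3 and 1.69 for 50.A.2.

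The first 2 clones of the list and clone 12.H.12 hold spots at blank level, meaning that neither dye exceeded the level below which 95% of that array's blank and DMSO spots lie. Clone 48.F.2 ranked first with rises of 4.33 (SE 5.23) and 4.05 (SE 5.27), and 12 of its 30 spots were at blank level. On the 2 arrays of 120 days its mutant level was 12.73 and 2.27, the latter with all 3 spots at blank level. With blank-level spots left out, its smaller rise was -1.22. Its spots at 190 days were at blank level on both arrays, so its level there is not well above background.

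Clone 50.A.2, ranked second, had 2 spots at blank level, both at 150 days. Its mutant levels on the arrays of 120 days were 7.92 and 4.55. Clone 12.H.12 had 1 such spot, and its smaller rise was -0.62 on the arrays of repeat 1 alone. A spot at blank level was found in 7 of the 100 clones and in 1.35% of all clones. The other 4 were 50.B.2, 55.D.1, 50.G.11 and 48.C.7. In the 93 clones without one the median rise was 1.11 for the mutant and 1.31 for the wild type.

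How alike the rises were varied among the 100 clones. The mutant rise minus the wild-type rise had a median of -0.21 and ran from -1.48 to 1.59, against a median of -0.23 over the kept clones. The closest pairs of rises were those of 50.A.4, 33.G.7, 11.A.6, 16.E.8 and 61.D.8, with differences of 0.003, -0.01, 0.02, 0.03 and -0.05. The widest were those of 50.B.2 (1.59), 48.C.7 (-1.48), 11.A.5 (1.25), 26.G.3 (-1.22) and 12.H.12 (1.003), and 3 of these 5 had a blank-level spot. Of the other 2, 11.A.5 stood higher by 2.03 (SE 0.19) in Hong Anliu and 0.78 (SE 0.19) in Anliu, and 26.G.3 by 0.72 (SE 0.06) and 1.94 (SE 0.29).

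The days 150, 170 and 190 did not enter the rise, and they were used to ask whether the 100 clones also climbed within the interval. The level, averaged over both genotypes and both arrays of a day, had a slope above 0 in 68 of the 100 clones, against 47.8% of all 5856 clones and 44.4% of the kept clones. The median slope was 0.84 per 100 days (log2, quartiles -0.20 and 1.98), against -0.06 over all clones. In a mirror list, the 100 kept clones with the lowest value of the larger rise, 15 had a slope above 0 and the median was -1.42. The level stood higher at 190 than at 150 days in both genotypes in 54 of the 100 clones, against 31.7% of all clones. It stood lower in both in 20, against 32.7%.

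In limma's fit of that slope over all 5856 clones, 0 of the 100 clones passed as rising at an adjusted p under 0.05, as did 0% of all clones, and 13 had an unadjusted p under 0.05, against 3.48% of all clones. Falling clones at an unadjusted p under 0.05 numbered 4, against 2.58%. The fit rests on 3 days and 1 residual degree of freedom before moderation, and the ratio filter used these days too. The count of 13 was 7 on the arrays of repeat 2 alone (4.43% of all clones) and 17 on those of repeat 1 alone (2.82%). Of the 93 clones without a blank-level spot 10 passed at the unadjusted threshold and 63 had a slope above 0.

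**Figure D2:**
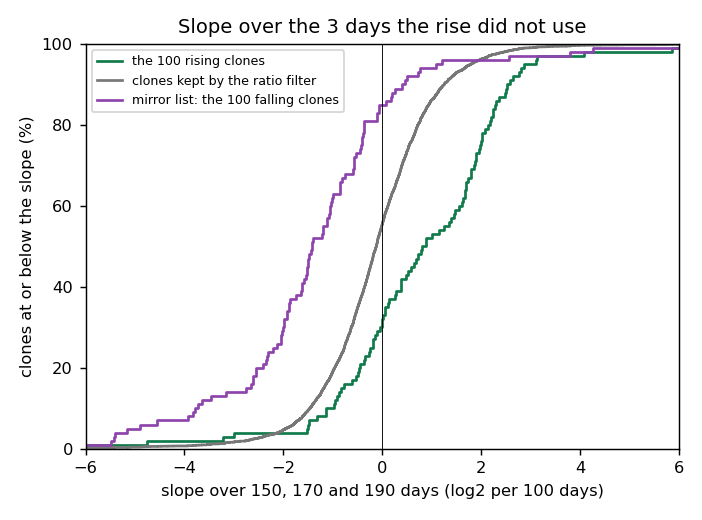
Cumulative share of clones (y axis, percent) by the slope of their mean level over 150, 170 and 190 days (x axis, log2 per 100 days). The curve of the 100 clones lies to the right of that of the 3597 kept clones over most of its range, with 68 of 100 above 0, and the mirror list lies to the left with 15 of 100 above 0; 2 of the 100 clones lie beyond the axis.

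In the fit to both repeats, the only clone of the 5856 that passed the adjusted test was 48.F.2, with a slope of -25.31 (adjusted p = 0.000412 in limma). It was the only falling call, 0.0171% of all clones. Of its 12 blank-level spots 3 lay at 120 days, 3 at 170 days and 6 at 190 days, and with such spots left out no clone passed in either direction. On the arrays of repeat 2 alone other clones passed, in both directions, so the adjusted calls depend on the arrays used. The highest slopes were those of 50.G.11 (7.69), 55.D.1 (5.85) and 50.A.2 (4.07), all with blank-level spots, and with these left out the slopes were 5.59, 1.95 and -0.72. On the arrays of repeat 2 alone the slopes of 55.D.1 and 50.A.2 were 0.99 and 1.18. Among clones with no such spot the rule named 34.G.12, at 3.13 (SE 0.98), and 58.G.6, at 3.10 (SE 1.11), both with an adjusted p of 0.776 in limma.

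At the low end lay 12.H.12 (-4.75), 52.H.7 (-3.21), 37.A.5 (-3.00) and 33.G.4 (-1.53). With blank-level spots left out the slope of 12.H.12 was -1.16 and that of 52.H.7 was -1.84. Clone 52.H.7 had no such spot itself, so its slope moved although none of its own spots was left out. On the arrays of repeat 2 alone that of 12.H.12 was -1.01, and that of 37.A.5 was 0.63. The mutant level of 52.H.7 was 6.97, 7.10, 6.43 and 8.90 from 150 to 220 days. Its wild-type level was 8.04, 7.54, 6.02 and 8.41. In 52.H.7 the high level was thus that of the last day. In limma, 50.G.11 at the high end had an adjusted p of 0.358. The other clones named for a high or low slope, apart from 48.F.2, had 0.776 or above.

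The shares by step were furthest from those of all clones in the first step. The level was higher at 150 than at 120 days in 92 clones in the mutant, against 41.6% of all clones, and in 88 in the wild type, against 48.2%. The rule used day 120, so this step is a description. From 150 to 170 days 47 clones stood higher in Hong Anliu (56% of all clones) and 55 in Anliu (44.9%). From 170 to 190 days 75 stood higher in Hong Anliu (43.8%) and 67 in Anliu (49.1%). From 150 to 190 days 61 stood higher in Hong Anliu (50.4%) and 73 in Anliu (48.7%). From 190 to 220 days, a step that uses day 220, the counts were 58 (50.1%) and 71 (52.4%). A level in the order of the 3 middle days was found in 28 clones in the mutant (8.73% of all clones) and in 35 in the wild type (11.4%). In both genotypes together it was found in 8 of the 100 clones, against 1.74% of all clones and 2.53% of the kept clones. With the genotypes exchanged at 170 days these counts would be 14 (13.8% of all clones), 40 (12.9%) and 4 (3.16%). From 150 to 170 days 20 clones (46.5%) would then stand higher for the mutant and 64 (52.6%) for the wild type. From 170 to 190 days 85 (54%) and 65 (41.9%) would.

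**Figure D3:**
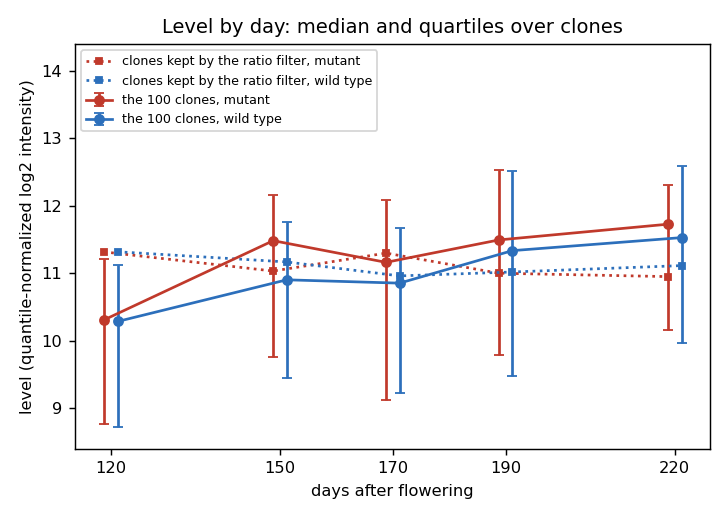
Median level (y axis, quantile-normalized log2 intensity) of the 100 clones by day after flowering (x axis), with bars from the lower to the upper quartile over clones, mutant in red and wild type in blue. Dotted lines are the medians of the 3597 kept clones; the 100 clones go from 10.31 to 11.73 in Hong Anliu and from 10.29 to 11.53 in Anliu.

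The genotypes moved apart in between, within the filter's limit. At 150 days the mutant stood above the wild type on both arrays in 75 of the 100 clones and below on both in 5, against 43.3% and 38.8% of all clones. Among the kept clones the shares were 37.1% and 39.8%. The median log2 ratio of the 100 clones at 150 days was 0.50, and -0.01 over the kept clones. It was 0.35 on the array with the mutant in Cy5 and 0.67 on the array with the mutant in Cy3, so both dye orientations gave it. The authors' deposited lowess ratios, made from these same arrays, hold a value at 150 days for 86 of the 100 clones. Of these 81 are above 1, against 52.4% of all clones listed.

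At the other days the ratios of the 100 clones lay on both sides of 0. At 120 days the median was 0.03, with 42 clones above 0 on both arrays (43.6% of all clones) and 34 below (43.1%). At 170 days it was 0.12, with 50 above on both arrays (47%) and 44 below (44.9%), and the quartiles were -0.45 and 0.87. With the sign at 170 days turned, 44 would be above and 50 below. At 190 days it was 0.11 (46 above, 44.2%, and 20 below, 42.8%), and at 220 days -0.07 (35 above, 38.3%, and 44 below, 44%). Each day has 1 pair of extracts, so no test of a single day is possible.

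**Figure D4:**
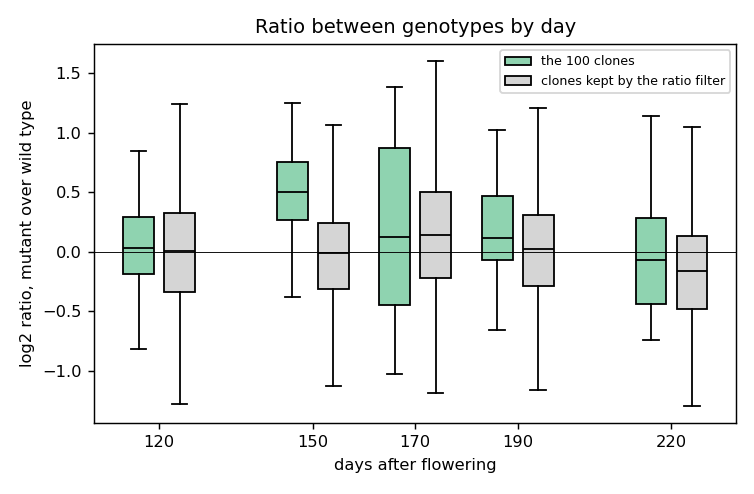
Log2 ratio of mutant over wild type (y axis) by day after flowering (x axis) for the 100 clones (green) and the 3597 kept clones (grey). Boxes span the quartiles with the median as a line and whiskers reach the last value within 1.5 box lengths; the green median is 0.50 at 150 days and between -0.07 and 0.12 at the other days, and the green box is widest at 170 days.

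Clones of different profiles make up the list. Grouped by average linkage at a mean correlation of 0.8 over the 10 extracts, the 100 clones fell into 20 groups, of which the largest held 25, 19 and 11 clones. Over the 4950 pairs of clones the median correlation was 0.62, and 110 pairs exceeded 0.97. The extracts of a day share arrays, and the clones were chosen for a common gain between days 120 and 220. The groups were formed on these values, those of 170 days included, and are described only.

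The group of 25, led by 44.G.1, 30.H.10 and 34.A.6, came from 18 plates, and 24 of its clones lay on plates 30 to 61. Those plates hold 52.5% of all clones. Relative to each clone's mean, the median mutant level was -0.94 ± 0.15, 0.10 ± 0.15, 0.34 ± 0.17, 0.65 ± 0.12 and 0.28 ± 0.14 from 120 to 220 days (± SD, n = 25 clones). The wild-type level was -0.83 ± 0.18, -0.38 ± 0.18, -0.68 ± 0.22, 0.76 ± 0.13 and 0.76 ± 0.20. In these clones the mutant level from 150 days on was above its own level at 120 days. The wild type stayed low to 170 days and was high at 190 days. The mutant stood above the wild type at 150 and at 170 days in 25 of 25 clones, with median log2 ratios of 0.52 and 0.94. At 190 days the mutant stood above in 4 of 25, with a median of -0.06, and at 220 days in 1 of 25, with a median of -0.47. Here and in the groups below, a clone stood above by its mean ratio over both arrays of a day. Over all clones the median of that ratio was 0.004, 0.03, 0.03, 0.01 and -0.06 from 120 to 220 days.

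The array levels of clone 58.G.6 of that group show the course on each hybridisation. In the mutant the 2 arrays gave, from 120 to 220 days, 10.83 and 10.79, 11.80 and 11.55, 11.70 and 12.29, 12.53 and 12.62, and 12.06 and 12.07. In the wild type they gave 11.08 and 10.91, 11.19 and 11.00, 10.79 and 10.92, 12.85 and 12.51, and 12.72 and 12.43. The wild-type arrays of 190 and 220 days lay above all wild-type arrays of 120 to 170 days. The clone was chosen by its rise and named for its high slope over the middle days. The arrays of a day repeat the hybridisation of the same extract, so this order is a description and not a test.

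The group of 19, led by 9.A.2, 29.A.8 and 12.B.7, came from 15 plates, with 3 clones on plates 30 to 61 (52.5% of all clones). Its median mutant level was -0.64 ± 0.27, 0.57 ± 0.26, -0.48 ± 0.21, 0.37 ± 0.24 and 0.52 ± 0.21 from 120 to 220 days (± SD, n = 19 clones). Its wild-type level was -0.88 ± 0.32, -0.19 ± 0.24, 0.15 ± 0.19, 0.23 ± 0.21 and 0.22 ± 0.25. Here the wild type changed little after 170 days, and the mutant was high at 150 days, low at 170 days and high again. The ratio at 170 days had a median of -0.80 and was above 0 in 0 of 19 clones, the opposite side from the group of 25. With the sign at 170 days turned, these clones would stand at 0.80 and those of the group of 25 at -0.94. The median level of the group of 25 at that day would then be -0.68 for the mutant and 0.34 for the wild type.

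The medians of the group of 11, led by 11.A.6, 36.F.4 and 32.B.4, were ordered in time in both genotypes as labelled. Its median mutant level was -0.35, 0.04, 0.22, 0.61 and 0.76 from 120 to 220 days, and its wild-type level was -0.95, -0.69, -0.03, 0.16 and 0.31. With the genotypes exchanged at 170 days the values of that day would be -0.03 for the mutant and 0.22 for the wild type, neither of them in order, and the median ratio -0.09. The median log2 ratios were 0.41, 0.78, 0.09, 0.22 and 0.36, and the mutant stood above the wild type in 10, 11, 6, 10 and 11 of the 11 clones at these days. In the mutant, clone 11.A.6 gave 12.63, 12.84, 13.11, 13.49 and 13.91, and in the wild type 11.88, 11.99, 12.57, 13.36 and 13.13. The slope over the middle days was above 0 in 11 of these 11 clones, in 25 of the 25 and in 12 of the 19. The share was 47.8% over all clones and 44.4% over the kept clones. The groups were formed on these days too, so a slope shared within a group is a description.

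Smaller groups had other courses. A group of 6 led by 24.F.1 had a median wild-type level of -0.43 at 190 days and 0.38 at 220 days, and its mutant stood above the wild type at 190 days in 6 of 6 clones. A group of 5 led by 33.H.5, all from plates 30 to 61 (52.5% of all clones), was lowest at 150 days in both genotypes. Its median level then was -0.79 in Hong Anliu and -0.59 in Anliu. A group of 5 led by 53.A.4 stood high at 150 and 170 days, then low at 190 days in both genotypes (-0.32 and -0.62), and high again at 220 days. The groups were formed on these same values, so their different courses are a description and not a test. The group led by 53.A.4 also holds 12.H.12 and 37.A.5, whose slopes over the middle days changed with the repeat used.

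**Figure D5:**
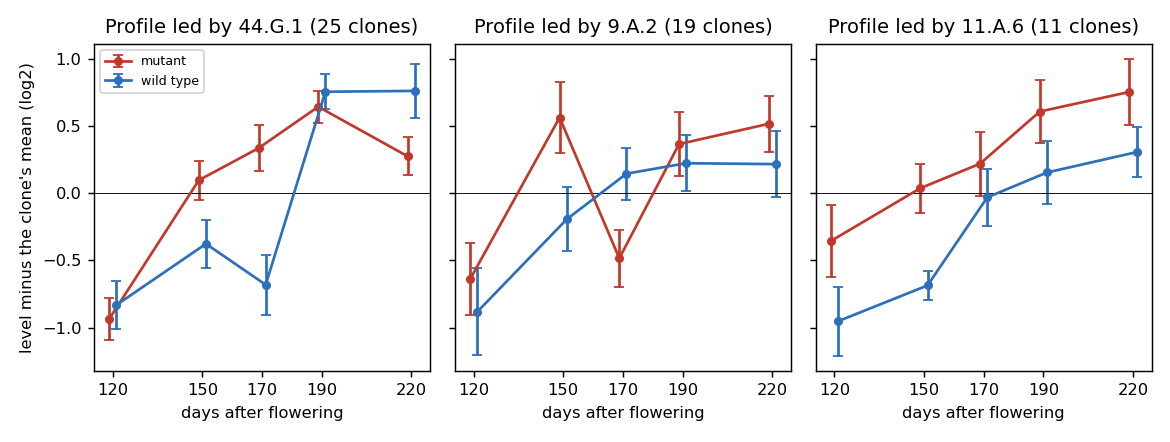
Median level minus the clone's own mean (y axis, log2) by day after flowering (x axis) in the 3 largest profile groups, mutant in red and wild type in blue, with bars of 1 SD over clones. In the group of 25 the wild type goes from -0.68 at 170 days to 0.76 at 190 days, and in the group of 19 the mutant dips to -0.48 at 170 days.

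Outside the 100, the clones with the profile most like their mean were 18.B.9, 32.A.4, 32.A.5, 32.A.3 and 56.B.4, with correlations of 0.98, 0.86, 0.86, 0.86 and 0.86 over the 10 extracts. The first 4 had been dropped by the ratio filter. Clone 18.B.9 had a ratio of 1.12 at 150 days and rises of 2.36 in Hong Anliu and 2.40 in Anliu. Clones 32.A.3, 32.A.4 and 32.A.5 are neighbours on plate 32, and their ratios were between 1.90 and 2.11 at 150 days and between -1.37 and -1.26 at 170 days. Clone 56.B.4 stood outside through its smaller rise of 0.42. Within the 100, the correlation with the mean profile had a median of 0.81 and ran from 0.11 (48.F.2) to 0.97.

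The clones came from 48 of the 61 plates and 42 of the 48 printing blocks. Plates 30 to 61 held 56% of the 100, against 52.5% of all clones. The profile groups differed in this, with 24 of the 25 clones and 3 of the 19 clones on these plates in the 2 largest groups. Plate 33 held 7 clones, the most of any plate, against 1.64% of all clones. By mean level over 150 to 190 days, 38 of the 100 fell among the dimmest 25% of all clones, 17 in the next 25%, 33 in the one above and 12 among the brightest 25%. A spot without the authors' intensity class was found in 24 of the 100, against 9.1% of all clones. With such spots left out, 83 of the 100 clones were chosen again, and the median rises of the 100 were 0.98 in Hong Anliu and 1.06 in Anliu.

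The swapped arrays allow the choice to be made on one repeat and read on the other, from the same extracts. The 100 clones chosen on repeat 1 alone had median rises on repeat 2 of 0.88 in Hong Anliu and 0.91 in Anliu, and 79 stood above 0 in both genotypes there, against 27.8% of all clones and 19.2% of the clones that passed the ratio filter on repeat 1. Those chosen on repeat 2 had 0.65 and 0.71 on repeat 1, with 76 above 0 in both, against 29% of all clones and 18.9% of those that passed on repeat 2. The lists of the repeats shared 20 clones. Both repeats carry the same RNA, so the shared direction describes the hybridisation and tests nothing about other fruit.

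The rises are relative to the typical clone of each channel. The amounts of the control spots named Y1 to Y4 are not stated. With channels set against them, the median rise of the 100 clones was 3.27 in Hong Anliu and -0.45 in Anliu. The median over all clones was then 1.97 and -1.59. On that scale the median wild-type level was lower late, while both medians of the 100 clones stayed above those of all clones. The scaling shifts all clones of a channel alike and the 100 were chosen for high rises, so nothing is read from that order.

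A slope over all 5 days was called rising for 5 of the 100 clones at an adjusted p under 0.05 in limma, against 2.8% of all clones. The calls were 50.A.2, 20.A.8, 13.F.3, 30.H.10 and 11.A.5. Days 120 and 220 chose the clones, so nothing is read from this count. It was 28 without 150 days, when 363 of all clones were called. Without 120 or without 220 days it was 0, as was the count over all clones.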

How the data were processed

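The members, lists and groups were chosen with earlier results of these data known. The authors deposited, per the file headers, a Cy5 and a Cy3 intensity for each spot. The intensities reach below 0. The headers and labels name neither the scanner nor the background method. The deposited ratio per spot is mutant over wild type, and the deposited log2 values of the series table equal its log2 within 5e-05. Amplification from 5 µg of RNA was followed by Klenow labelling, per the labels' protocols.

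Each array carried 19152 spots, 17568 of them from 5856 clones with 3 spots each. Values at or below 0 were left out. Log2 ratios were normalized by loess within each array with controls at weight 0 (limma 3.58.1, R 4.3.3) and averaged per clone. For levels, log2 intensities were averaged per clone, quantile-normalized over the 20 channels and averaged over the swapped arrays. Slopes per 100 days were tested two-sided with lmFit and eBayes over all clones, with Benjamini-Hochberg adjustment and calls at 0.05. In the main fits the p-values set the slope against the scatter of the day means around a straight line, moderated over all clones. A steady course that is not straight counts as error there. Each day has 1 extract per genotype, so variation between fruit is not measured, and the number of arrays limits the precision.

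Clones were named by fixed orders: 10 by smaller rise, 5 each by smallest and largest difference of rises, 5 each by highest and lowest middle slope, 3 on each side of the limit and 5 by likeness. Any other clone named, such as the leading clones of profile groups, was picked with its values in view. The slope fit was tested on simulated data. Alternatives covered scaling, filters, spots, arrays and the fit.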

Additional observations from a re-analysis of the deposited data

Results flagged for a closer look

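In the group of 25 clones led by 44.G.1, the median change from 150 to 170 days was 0.56 and 0.05 on the arrays of repeat 1 and repeat 2 in the mutant, and -0.10 and -0.53 in the wild type. Both arrays of one genotype thus moved opposite to both of the other, by a mean difference of 0.62 (log2, mutant minus wild type). The difference was not tested, the group was formed on these values, and with the genotypes exchanged at 170 days the sides would differ. In the group of 19 the change from 150 to 170 days differed more, by -1.25, with -0.86 and -1.25 in the mutant and 0.40 and -0.02 in the wild type, so the arrays of the wild type did not share a direction.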

How the results depend on the processing

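Of the 109 repeats of the main counts and medians under other settings, 84 kept the value within its limits. The limits for counts were wide: 70 of the 100 clones chosen again, with the ratio filter from the authors' series table, was within them. A median had to lie within the SD between the repeats. Some repeats could not differ, since other fits of the same levels gave the same slopes. The number 84 is thus not a measure of stability. With channels set against the control spots, 58 of the 100 clones were chosen again, the median rise was 3.27 in Hong Anliu and -0.45 in Anliu, and their difference had a median of 3.72. The rising clones over the middle days then numbered 42 at an unadjusted p (12% of all clones) and 2 at an adjusted p (13 of all clones), and 91.6% of all clones had a slope above 0. Smaller rises turned there to -0.16 for 9.A.2, -0.063 for 12.H.12 and -0.43 for 13.F.3. Without the ratio filter 2 clones were chosen again, and 94% of that list came from plates 30 to 61, against 52.5% of all clones. With median scaling the median rises were 0.91 and 1.20, and with spots lacking a class left out 0.98 and 1.06. With 1 repeat of each day left out, 45 to 64 clones were chosen again and 7 to 17 passed as rising over the middle days. The smaller rise of 48.F.2 ranged from -1.25 without repeat 2 to 9.35 without repeat 1, and was -1.24 with unclassed spots left out and -1.22 with blank-level spots left out. That of 12.H.12 ranged from -0.62 without repeat 2 to 3.96 without repeat 1. The slope of 37.A.5 ranged from -6.63 without repeat 2 to 0.63 without repeat 1, and that of 50.A.2 was -0.72 without blank-level spots.

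With 12 channels, dye and genotype as terms and a replicate block, 36 of the 100 clones (5.33% of all) passed at an unadjusted p and 0 at an adjusted p in limma. Channels of 1 array were treated as separate there. Same-numbered arrays share only the dye orientation: their deviations correlated between -0.35 and 0.19 over 10 pairs of days. In the mutant alone 1 clone passed at an unadjusted p (0.154% of all), and in the wild type alone 2 (0.734%). The 5-day slope called 0 of the 100 clones without 120 days, 28 without 150 days, 1 without 170 days, 1 without 190 days, 0 without 220 days, 3 with median scaling and 9 with control spots. Over all 5856 clones it called 0, 363, 115, 115, 0, 157 and 203 at these settings. Leaving out blank-level spots, averaging spots after normalization, filtering on the authors' series table and exchanging the genotypes at 170 days were chosen after seeing the data. The causes were not tested.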
